A study of Mus musculus with 4 samples.

Results

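Cytotoxic lymphocytes, which are natural killer (NK) cells and killer T cells, destroy target cells by releasing granules that carry granzymes and perforin, and they read their targets through activating and inhibitory surface receptors. The 10 genes described here cover that program: the granzymes Gzma and Gzmb, the pore-forming protein gene Prf1, the granule-associated genes Nkg7 and Ctsw, the receptor genes Klrd1, Klrk1 and Ncr1, the cytokine receptor chain gene Il2rb and the transcription factor gene Eomes. They were taken by name from 19505 genes on a mouse Clariom S expression array, and each was measured by 1 probe set. Macrophages do not ordinarily carry this program, which belongs to lymphocytes that also live in and enter the heart.

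The libraries came from macrophages that were sorted from wild-type C57BL/6N mice, 15 to 16 weeks old, after transverse aortic constriction (TAC), a narrowing of the aorta that puts the left ventricle under pressure. Cells of 6 hearts were pooled and sorted into 4 populations titled CD74, Trem2, CD163 and Ccrl2, all from TAC hearts, with no unoperated group among them. Each population gave 1 library on 1 array, so the pooled hearts are not replicates and no difference below has a test, a standard deviation or a replicate check. The source names place sampling at 8 weeks after TAC and the growth protocol at 1 week. The source name of the library titled CD74 reads CD9 instead, and Lyve1 stands in the growth protocol in the place that CD163 has among the titles.

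Levels are the deposited values, judged from their range to be on a log2 scale, so 1 unit is taken as a 2-fold difference. For each array a background ceiling was set at the 95th percentile of 1498 chemosensory receptor and keratin-associated protein genes, which hearts and leukocytes mostly do not use. It lay at 6.53 in CD74, 5.51 in Trem2, 6.28 in CD163 and 5.67 in Ccrl2, with 3621, 8144, 4984 and 7454 genes above it in the same order. A dim gene was therefore less readily called in CD74 and CD163. A gene was called higher in 1 library than in another when it lay above its ceiling in the first and at least 2-fold above both the value and the ceiling of the second. Where the second value lay under its ceiling, the fold is given as "at least".

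The sort label was checked against macrophage markers before the members were compared. All 13 measured macrophage markers lay above the ceiling in Trem2, CD163 and Ccrl2, against 7 of 13 in CD74. Of all genes, 41.8% did so in Trem2, 25.6% in CD163, 38.2% in Ccrl2 and 18.6% in CD74. Csf1r, through which macrophages sense their growth factor, had 9.40 in CD74, 19.19 in Trem2, 18.60 in CD163 and 19.59 in Ccrl2. Mertk, Fcgr1, Cd163, Lyve1, Folr2 and Trem2 were not above the ceiling in CD74. By the 2-fold rule, 12 of the 13 markers were lower in CD74 than in Trem2, and likewise 12 than in CD163 and 12 than in Ccrl2. Of the genes above the ceiling in either library, 32.6%, 19.3% and 32.0% were lower in CD74 in the same order. The median differences were -7.22, -8.45 and -8.05 log2 units in the same order. The library titled CD74 thus went against its macrophage label for most of these markers, and it is called by its title below. Of the genes that named a sort, Cd163 had 4.96 in CD74, 13.11 in Trem2, 14.51 in CD163 and 13.01 in Ccrl2, and Trem2 had 5.94, 7.20, 6.71 and 7.17 in the same order. The Trem2 gene thus did not set the library titled Trem2 apart from Ccrl2 or CD163 by 2-fold.

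Of the 10 genes, 9 lay above the ceiling in at least 1 library and Klrd1 in none. By library, 6 were above it in CD74, 8 in Trem2, 1 in CD163 and 0 in Ccrl2, beside 18.6%, 41.8%, 25.6% and 38.2% of all genes in the same order. Most members fell into 1 of 2 patterns. Gzma, Nkg7, Ctsw and Il2rb were at least 2-fold higher in CD74 than in each other library, while Prf1, Klrk1 and Ncr1 passed the ceiling in Trem2 alone. Gzmb and Eomes passed it in CD74 and Trem2 at deposited levels within 2-fold of each other. After quantile normalization they too were called higher in CD74 than in each other library, which made 6 members in place of 4. The first pattern held for 4 of 10 members, beside 1.78% of the 9346 genes above a ceiling anywhere, and the second for 3 of 10, beside 11.3% of those genes. The second pattern rests on the ceilings. In CD74, Prf1, Klrk1 and Ncr1 had 6.27, 5.99 and 6.48, under the ceiling of 6.53 but above the Trem2 ceiling of 5.51. None of the 3 was called between CD74 and Trem2. In bulk samples such as these, fewer cells of a type and less RNA per cell cannot be told apart.

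**Figure D1:**
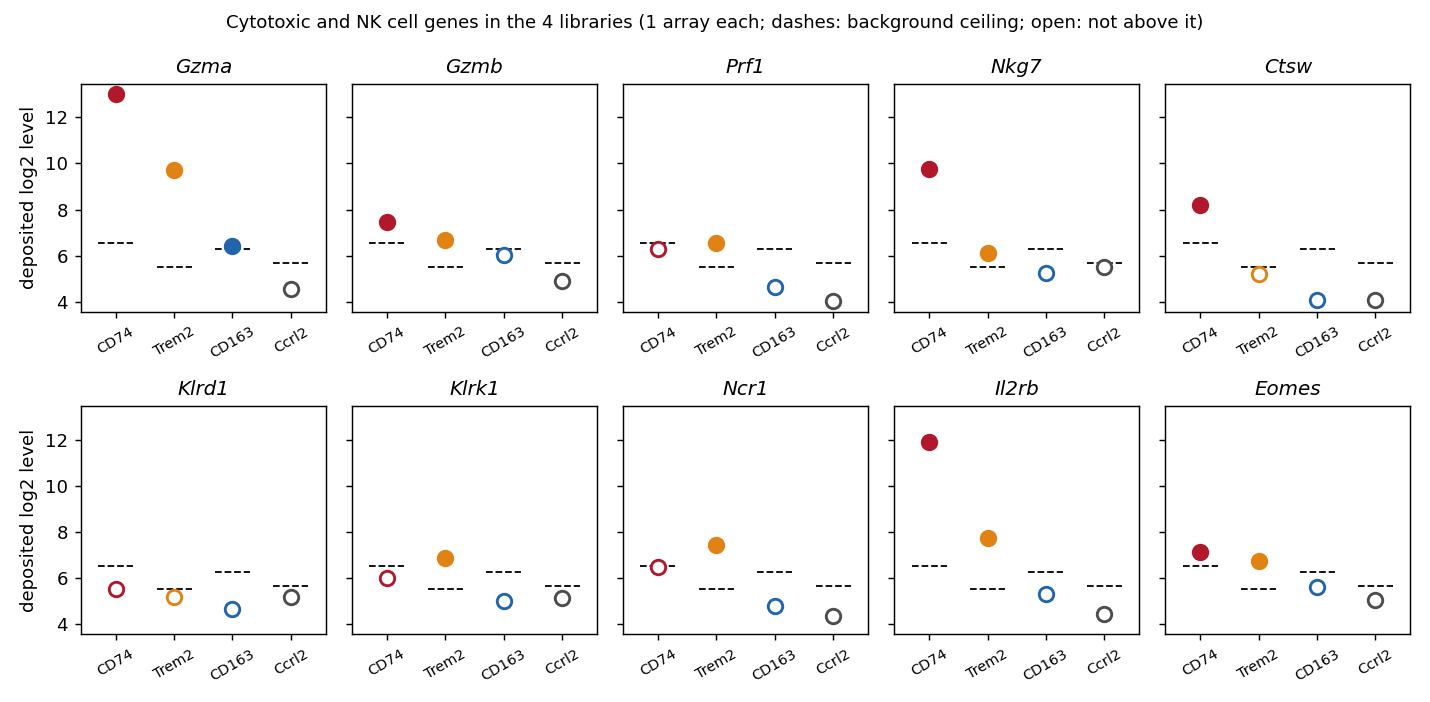
Deposited log2 level (y axis) of each of the 10 genes in the 4 libraries (x axis), 1 point per array, with each library's background ceiling as a dashed line and open points for values not above it. Gzma and Il2rb stood far above the ceiling in CD74 at 13.01 and 11.91, and the 10 points of Ccrl2 were all open.

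Promoter sequence was available for 7 of the 10 genes, as windows of 300 bases from 250 before to 50 after the transcription start in RefSeq's GRCm38.p6 annotation. The windows of Gzma and Nkg7 are shown for the genes highest in CD74, and those of Ncr1 and Klrk1 for the receptors above the ceiling in Trem2 alone. They lie at chr13:113100932-113101231 (minus strand), chr7:43436888-43437187 (plus strand), chr7:4337465-4337764 (plus strand, the upstream one of 2 listed Ncr1 starts) and chr6:129623815-129624114 (minus strand) in the order printed, each read on the strand of its gene. Capitals mark the letters GTGTGA (T-box factors such as Eomes), TGTGGT (RUNX factors), AGGAAG (ETS factors), TTCNNNGAA (STAT factors) and TGANTCA (AP-1), searched on both strands.
Gzma: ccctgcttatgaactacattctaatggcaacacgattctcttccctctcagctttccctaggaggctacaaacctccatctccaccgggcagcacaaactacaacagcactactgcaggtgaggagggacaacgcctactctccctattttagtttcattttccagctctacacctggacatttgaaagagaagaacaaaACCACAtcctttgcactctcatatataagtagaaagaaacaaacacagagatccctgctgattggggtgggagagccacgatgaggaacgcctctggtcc
Nkg7: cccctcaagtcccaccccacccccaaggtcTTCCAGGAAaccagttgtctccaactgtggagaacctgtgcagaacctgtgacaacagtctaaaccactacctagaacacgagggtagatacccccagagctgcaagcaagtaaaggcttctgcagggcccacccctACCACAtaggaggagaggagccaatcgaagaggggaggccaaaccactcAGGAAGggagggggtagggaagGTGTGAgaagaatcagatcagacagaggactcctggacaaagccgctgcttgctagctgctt
Ncr1: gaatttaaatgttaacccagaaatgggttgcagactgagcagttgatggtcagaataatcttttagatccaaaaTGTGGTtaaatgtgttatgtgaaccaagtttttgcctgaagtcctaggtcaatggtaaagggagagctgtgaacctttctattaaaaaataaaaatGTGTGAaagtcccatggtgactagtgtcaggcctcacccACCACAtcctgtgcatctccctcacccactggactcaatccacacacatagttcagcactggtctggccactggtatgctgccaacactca
Klrk1: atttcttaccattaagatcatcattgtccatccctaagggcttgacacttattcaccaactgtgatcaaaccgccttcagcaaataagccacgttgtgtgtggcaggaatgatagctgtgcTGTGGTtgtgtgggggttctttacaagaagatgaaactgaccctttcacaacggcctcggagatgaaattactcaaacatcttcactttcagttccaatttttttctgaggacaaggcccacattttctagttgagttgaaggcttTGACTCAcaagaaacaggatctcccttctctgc

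The RUNX letters were found in 6 of the 7 windows (Gzma, Gzmb, Prf1, Nkg7, Klrk1 and Ncr1), beside 16.9% of 27025 mouse promoter windows of that length. The T-box letters were in 3 windows (Gzmb, Nkg7 and Ncr1), beside 14.4% of all windows. The ETS letters were in 2 (Prf1 and Nkg7, beside 35.1%), the STAT letters in 2 (Gzmb and Nkg7, beside 8.5%) and the AP-1 letters in 2 (Gzmb and Klrk1, beside 7.9%). The Eomes window held none of the 5. Both patterns of levels were thus represented among windows with the RUNX letters, and a match is a stretch of letters, not a measured site.

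The granzymes are the killing proteases of the granule. Gzma, a trypsin-like protease, had 13.01 in CD74, 9.71 in Trem2, 6.42 in CD163 and 4.54 in Ccrl2. It was high in CD74 and Trem2, and the CD163 value lay close above its ceiling. CD74 was 9.85-fold above Trem2, 96.3-fold above CD163 and at least 162-fold above Ccrl2, while Trem2 was 9.78-fold above CD163 and at least 16.4-fold above Ccrl2. Gzma was the only member above the ceiling in CD163.

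Gzmb, the granzyme that cleaves after aspartate and activates caspases, had 7.46 in CD74, 6.69 in Trem2, 6.02 in CD163 and 4.92 in Ccrl2. It was above the ceiling in CD74 and Trem2, and its values in CD163 and Ccrl2 have no order. CD74 was at least 2.27-fold above CD163 and at least 3.46-fold above Ccrl2, and Trem2 was at least 2.03-fold above Ccrl2. CD74 and Trem2 lay within 2-fold of each other (0.77 log2 units), though quantile normalization widened this gap to 1.90. Gzmb sits in a cluster of similar genes, and how far their RNA reaches its probes was not tested.

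Prf1 encodes perforin, which opens the target cell's membrane to the granzymes. It had 6.27 in CD74, 6.56 in Trem2, 4.63 in CD163 and 4.02 in Ccrl2. Only the Trem2 value passed its ceiling, and the CD74 value, which lay under the higher CD74 ceiling, differed from it by -0.29 log2 units. The order of these 2 libraries turned after quantile normalization (6.57 in CD74 and 6.34 in Trem2), so Prf1 did not separate them. Trem2 was not called higher than CD163 or Ccrl2, where the bounds came to at least 1.21-fold and 1.85-fold.

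Nkg7 encodes a granule membrane protein needed for granule release. It had 9.75 in CD74, 6.10 in Trem2, 5.26 in CD163 and 5.52 in Ccrl2. CD74 was 12.6-fold above Trem2, at least 11.1-fold above CD163 and at least 16.9-fold above Ccrl2. Among the other 3 libraries only Trem2 passed its ceiling, and it was not called higher than either CD163 or Ccrl2.

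Ctsw encodes cathepsin W, a cysteine protease of NK cells and killer T cells. It had 8.21 in CD74, 5.19 in Trem2, 4.10 in CD163 and 4.07 in Ccrl2, so CD74 alone passed its ceiling. CD74 was at least 6.50-fold above Trem2, at least 3.81-fold above CD163 and at least 5.82-fold above Ccrl2. These bounds are set by the 3 ceilings and do not order Trem2, CD163 and Ccrl2.

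The receptor genes Ncr1 and Klrk1 had their highest values in Trem2. Ncr1 encodes an activating receptor that marks NK cells and related innate lymphocytes and is mostly absent from T cells. It had 6.48 in CD74, 7.42 in Trem2, 4.79 in CD163 and 4.37 in Ccrl2. Trem2 was at least 2.20-fold above CD163 and at least 3.36-fold above Ccrl2, and the CD74 value lay just under its ceiling. Trem2 was at least 1.85-fold above CD74, short of the 2-fold rule, and after quantile normalization the values were 6.90 in CD74 and 7.00 in Trem2, a difference of -0.10.

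Klrk1 encodes an activating receptor, shared by NK cells and killer T cells, for ligands that stressed cells display. It had 5.99 in CD74, 6.86 in Trem2, 5.0 in CD163 and 5.13 in Ccrl2. Trem2 was at least 2.28-fold above Ccrl2 and was not called higher than CD74 or CD163. Klrd1 encodes the chain that pairs with Klrc receptors to read a nonclassical class I molecule. It had 5.51 in CD74, 5.17 in Trem2, 4.67 in CD163 and 5.18 in Ccrl2, none of them above its ceiling, so its libraries have no order.

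Il2rb encodes the receptor chain through which NK cells and memory killer T cells respond to IL-2 and IL-15. It had 11.91 in CD74, 7.76 in Trem2, 5.33 in CD163 and 4.45 in Ccrl2. CD74 was 17.8-fold above Trem2, at least 49.5-fold above CD163 and at least 75.6-fold above Ccrl2. Trem2 in turn was at least 2.79-fold above CD163 and at least 4.26-fold above Ccrl2.

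Eomes encodes a T-box factor of NK cells and memory killer T cells. It had 7.11 in CD74, 6.72 in Trem2, 5.62 in CD163 and 5.06 in Ccrl2. CD74 was at least 2.71-fold and Trem2 at least 2.07-fold above Ccrl2, while CD74 and Trem2 differed by 0.39 log2 units. Against CD163 neither was called higher. After quantile normalization CD74 was called higher than both, by 1.39 over Trem2 and 2.27 over CD163 on the log2 scale.

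Set library against library, the members were counted as follows. Between CD74 and Ccrl2, 6 of 10 were called higher and 0 lower in CD74, beside 7.80% and 32.0% of 7902 genes tested. The other 4 members lay under both ceilings and could not be called. The median difference was 2.40 log2 units over the 10 members and -0.96 over the genes tested. On deposited values with no ceiling, 8 of 10 members were at least 2-fold higher, as were 22.0% of the background genes. The median over all genes was -0.05. The 10 members include the 4 under both ceilings, while the genes tested leave such genes out, so these medians cover unlike sets. The same holds for the medians below.

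Between CD74 and CD163, 5 of 10 were called higher and 0 lower in CD74, beside 9.98% and 19.3% of 5842 genes tested. Another 4 members lay under both ceilings and could not be called. The medians were 1.66 over the members and -0.47 over the genes tested. Between CD74 and Trem2, 4 of 10 were called higher and 0 lower in CD74, beside 7.62% and 32.6% of 8522 genes, with medians of 0.58 and -1.01. The median over all genes was -0.05 in both comparisons. The count against Trem2 held the granule genes Gzma, Nkg7 and Ctsw and the cytokine receptor Il2rb, and none of the 3 other receptors. Klrd1 alone lay under both the CD74 and the Trem2 ceiling. These 3 comparisons share the CD74 library.

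**Figure D2:**
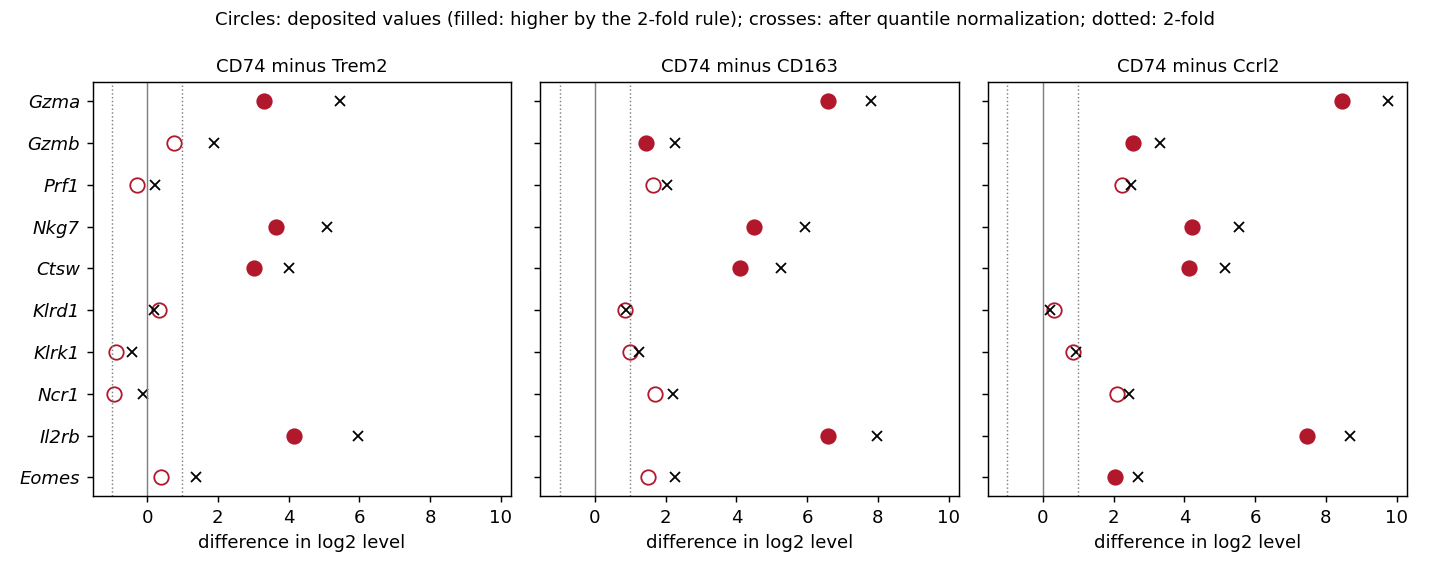
Difference in log2 level (x axis) between the CD74 library and the Trem2, CD163 or Ccrl2 library (panels) for each gene (y axis), with filled circles for genes called higher in CD74 and crosses for the difference after quantile normalization. Il2rb, Nkg7, Gzma and Ctsw lay at 4.15, 3.65, 3.30 and 3.02 against Trem2, while Prf1, Klrk1 and Ncr1 lay at -0.29, -0.87 and -0.94.

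The comparisons without CD74 rest on 3 libraries in which all measured macrophage markers passed the ceiling. Between Trem2 and Ccrl2, 6 of 10 members were called higher (Gzma, Gzmb, Klrk1, Ncr1, Il2rb and Eomes) and 0 lower in Trem2, beside 7.92% and 5.43% of 8773 genes tested. Between Trem2 and CD163, 3 were called higher (Gzma, Ncr1 and Il2rb) and 0 lower in Trem2, beside 27.6% and 6.07% of 8532 genes, so this count was close to the background. The same 3 were higher in Trem2 than in both CD163 and Ccrl2, beside 5.34% of 9059 genes. Against Ccrl2 and against CD163 alike, 2 of the 10 members lay under both ceilings and could not be called. The medians over members and genes tested were 1.75 and 0.08 against Ccrl2, and 1.48 and 0.69 against CD163. Over all genes the median was 0.0 against Ccrl2 and 0.01 against CD163.

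The count against Ccrl2 dropped to 3 after quantile normalization (Gzma, Ncr1 and Il2rb), to 2 with the highest ceiling used for every library and to 3 with a ceiling at the 99th percentile. The count against CD163 dropped to 1 (Gzma) after quantile normalization. Between CD163 and Ccrl2, 0 members were called in either direction, beside 5.03% of 7891 genes higher and 28.1% lower in CD163. Of the 10 members, 9 lay under both ceilings and could not be called, so the 0 rests on Gzma alone. The 10 members had medians under the ceiling in both libraries, 5.13 in CD163 and 4.73 in Ccrl2.

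The wider cytotoxic program was read from lists of related genes. Counts of list genes higher in CD74 than in each other library stand beside 1.78% of the 9346 genes above a ceiling anywhere. In lists of this size a count of 0 cannot be told apart from that share. Of 6 measured other granzymes, 0 were higher in CD74 than in each other library. Gzmn was the 1 such gene above any ceiling, with 6.72 in CD74, 5.04 in Trem2, 6.57 in CD163 and 4.31 in Ccrl2, and Gzmk, the neighbour of Gzma, reached 6.39 in CD74, under the ceiling.

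Of 13 granule and release genes, 3 were higher in CD74 than in each other library, namely Serpinb9, Serpinb6b and Rab27a. Serpinb9, an inhibitor that shields killer cells from granzyme B, had 9.69 in CD74, 7.55 in Trem2, 5.73 in CD163 and 5.99 in Ccrl2. Serpinb6b, a related inhibitor, had 7.70, 5.93, 3.98 and 4.46 in the same order of libraries. Ctsc, the protease that activates granzymes and is also abundant in macrophages, went the other way with 13.20 in CD74 and 19.88 or more elsewhere. Srgn, which encodes the granule proteoglycan and is made by many leukocytes, was highest in Trem2 at 18.31, with 15.80 in CD74.

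Of 9 death ligands and cytokines, Ifng alone was higher in CD74 than in each other library. This cytokine of NK and T cells had 7.73 in CD74, 6.10 in Trem2, 5.12 in CD163 and 3.96 in Ccrl2. Ccl5, made by killer lymphocytes and by macrophages, had 10.93 in CD74, 9.13 in Trem2, 6.86 in CD163 and 11.02 in Ccrl2. Ccl3 and Ccl4, which activated macrophages release in bulk, were lowest in CD74 at 13.76 and 10.82, against 18.98 or more and 17.51 or more elsewhere.

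The lectin-like receptors of the Klr family are encoded together on chromosome 6. Of 22 measured besides the members, 3 passed the ceiling in CD74, 11 in Trem2, 2 in CD163 and 1 in Ccrl2. The counts in CD74 and Trem2 were near the shares of all genes above those ceilings. In Trem2 alone, 6 of the 12 above any ceiling passed it, beside 11.3% of the 9346 genes above a ceiling anywhere. Of these 6, Klra9 had 6.49 in CD74 and 6.56 in Trem2, and Klri1 had 6.12 and 5.96. Both CD74 values lay under the higher CD74 ceiling of 6.53, so for these genes Trem2 alone reflects the ceilings. Klrb1c, the NK1.1 antigen gene of this strain, had 9.02 in CD74, 7.83 in Trem2, 6.19 in CD163 and 5.65 in Ccrl2. Klrc1, which encodes the inhibitory partner of Klrd1, had 7.43, 5.63, 4.77 and 4.55 in the same order, and Klri2 had 5.78, 7.35, 5.76 and 4.54. Klra2 had 8.79 in Trem2 and 8.30 in Ccrl2 but values under the ceiling in CD74 (5.10) and CD163 (5.38). Klr genes have near-identical copies, and binding of RNA from 1 copy to the probes of another was not tested.

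Of 17 other NK surface receptor genes, Tigit and Ly6c2 were higher in CD74 than in each other library. Tigit, an inhibitory receptor of T and NK cells, had 7.40 in CD74, 4.26 in Trem2, 5.49 in CD163 and 5.35 in Ccrl2, below the ceiling in all but CD74. Ly6c2, which monocytes also use, had 12.55 in CD74, 10.98 in Trem2, 5.99 in CD163 and 6.90 in Ccrl2. Slamf7, an activating receptor of NK cells that macrophages also carry, was highest in Ccrl2 at 9.73, with 7.21 in CD74, 7.60 in Trem2 and 4.13 in CD163. Cx3cr1 and the Fc receptor gene Fcgr3 had the macrophage pattern, at 5.13 and 10.47 in CD74 against 7.06 or more and 18.95 or more elsewhere.

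Of 15 receptor adaptors and kinases, Cd247 and Txk were higher in CD74 than in each other library. Txk, a kinase of T and NK cells, had 7.75 in CD74, 5.18 in Trem2, 4.96 in CD163 and 4.08 in Ccrl2. Tyrobp, Fcer1g and Plcg2, which NK cells share with myeloid cells, were lower in CD74 than in Trem2 and Ccrl2, with Tyrobp at 6.84 in CD74, 10.40 in Trem2, 9.37 in CD163 and 10.15 in Ccrl2.

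Of 11 lineage transcription factors, 0 were higher in CD74 than in each other library. Ikzf3, a lymphocyte factor, had 9.22 in CD74, 8.33 in Trem2, 5.63 in CD163 and 5.77 in Ccrl2, and Ets1 had 12.13, 11.25, 7.44 and 9.81 in the same order. Both were higher in Trem2 than in CD163 and Ccrl2. Id2, a factor that NK cells require and many myeloid cells express, had 12.56 in CD74, 14.96 in Trem2, 11.58 in CD163 and 15.12 in Ccrl2. Prdm1 was highest in Ccrl2 at 7.73, with 5.84 in CD74, 5.96 in Trem2 and 4.21 in CD163. Tbx21, the T-box relative of Eomes, was under the ceiling in every library.

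Of 15 cytokine receptor and signalling genes, Il7r and Il18rap were higher in CD74 than in each other library. Il7r, a receptor of T cells and innate lymphocytes, had 9.84 in CD74, 5.56 in Trem2, 5.15 in CD163 and 4.46 in Ccrl2. Il18rap, a chain of the IL-18 receptor, had 7.76, 5.84, 5.48 and 4.0 in the same order. Stat4, which carries the IL-12 signal, was lowest in CD163 at 4.64, with 8.17 in CD74, 8.30 in Trem2 and 7.84 in Ccrl2. Il21r passed the ceiling in Trem2 at 7.42 and in Ccrl2 at 7.09, and not in CD74 or CD163.

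Ligands that the NK receptors bind were counted too. Of 11 measured, 0 were higher in CD74 than in each other library, beside 1.78% of the 9346 genes above a ceiling anywhere. Lower in CD74 than in Trem2 were 4 of the 11, beside 32.6% of 8522 genes tested. Both counts were thus close to the shares over all genes. H2-T23, the class I molecule that the Klrd1 pair reads, had 8.02 in CD74, 10.22 in Trem2, 8.79 in CD163 and 10.52 in Ccrl2. Clec2d, a ligand of Klrb1 receptors, had 7.87, 10.78, 8.55 and 9.88 in the same order, and Pvr had 6.81, 8.27, 6.69 and 9.18.

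Markers of other leukocytes differed between the libraries too, and the 2 libraries that carried most members were unlike in them. Of 14 measured T cell markers, 10 were higher in CD74 than in each other library, beside 1.78% of the 9346 genes above a ceiling anywhere. Cd3e, a chain of the T cell receptor complex, had 9.50 in CD74, 4.55 in Trem2, 4.13 in CD163 and 4.56 in Ccrl2. Cd8a, the coreceptor of killer T cells, had 8.01, 4.48, 4.32 and 4.27 in the same order, and Cd4 had 9.35, 6.75, 6.48 and 7.35. In Trem2, 3 of the 14 passed the ceiling (Cd4, Cd28 and Icos), beside 41.8% of all genes, and Cd3e, Cd3d, Cd3g and Cd8a did not.

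The summed log2 level of the T cell list was 106.0 in CD74, 67.8 in Trem2, 68.2 in CD163 and 67.6 in Ccrl2. Its markers passed the ceiling for 10, 3, 2 and 1 genes in the same order, so outside CD74 the sums came mostly from values under the ceilings. Between Trem2 and Ccrl2, 0 of its genes were called, beside 7.92% higher and 5.43% lower of 8773 genes. Trem2 instead stood apart by neutrophil markers, of which 8 of 10 were higher there than in both CD163 and Ccrl2, beside 5.34% of 9059 genes. S100a8 had 6.81 in CD74, 12.29 in Trem2, 4.66 in CD163 and 5.64 in Ccrl2, and the list's summed level was 61.1, 106.3, 51.3 and 59.0 in the same order. Of 9 B cell markers, 4 were likewise higher in Trem2 than in both CD163 and Ccrl2, beside the same 5.34%. Cd79a had 10.70 in CD74, 11.80 in Trem2, 6.31 in CD163 and 9.66 in Ccrl2. Of 8 measured innate lymphoid markers, 2 passed the ceiling in CD74 and Trem2 (Tmem176a and Rora) and 1 in CD163 and Ccrl2 (Tmem176a). No other of the 8 passed a ceiling in any library. The summed level was 47.6 in CD74, 42.0 in Trem2, 42.8 in CD163 and 43.9 in Ccrl2. It came mostly from values under the ceilings and does not order the libraries. The part of these cell types in the members' levels was not tested.

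Of 9 monocyte markers, 5 passed the ceiling in CD74, 8 in Trem2, 2 in CD163 and 4 in Ccrl2. Of 9 mast cell and basophil markers, 3, 6, 1 and 3 passed it in the same order of libraries, and of 9 dendritic cell markers 2, 2, 1 and 2. Ccr7, a homing receptor of dendritic cells that naive T cells also use, had 14.97 in CD74, 11.68 in Trem2, 9.94 in CD163 and 11.38 in Ccrl2. Endothelial markers passed it for 2, 7, 5 and 7 of 8 genes, fibroblast markers for 2, 7, 3 and 7 of 8, cardiomyocyte markers for 4, 8, 7 and 9 of 9, and erythrocyte and platelet markers for 0, 2, 1 and 2 of 5, again in that order. These counts stand beside the 18.6%, 41.8%, 25.6% and 38.2% of all genes above the ceilings in that order.

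**Figure D3:**
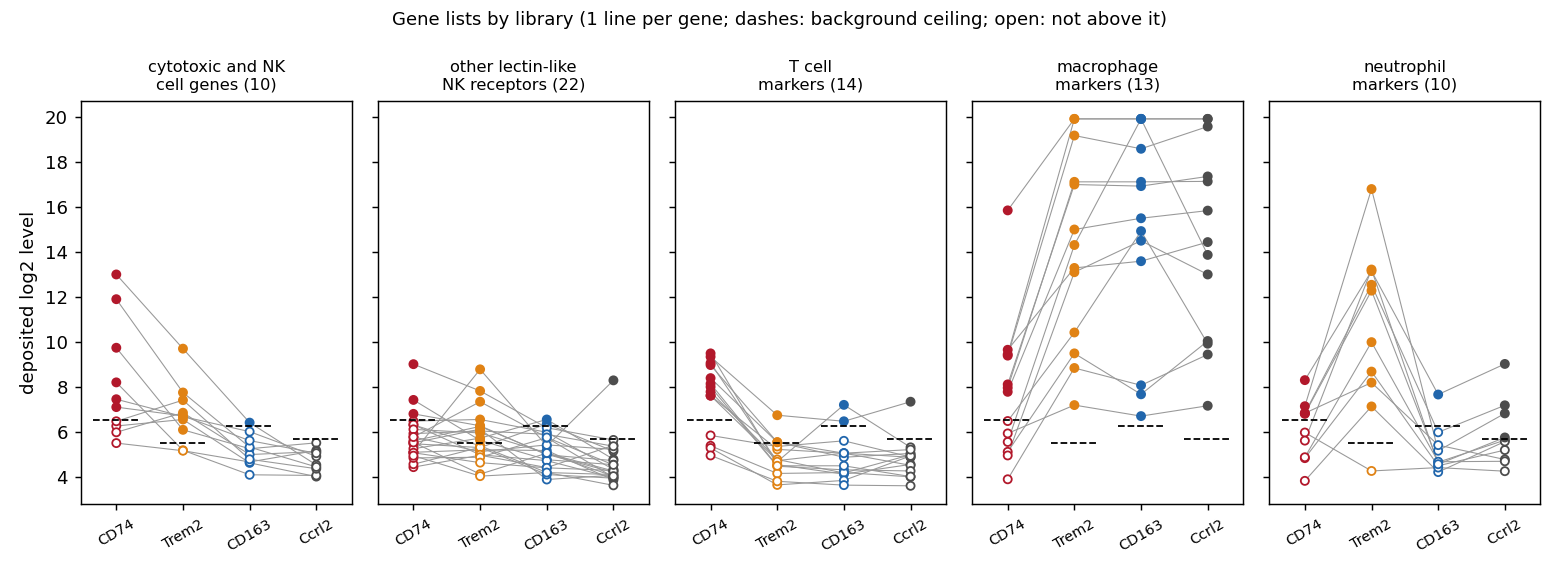
Deposited log2 level (y axis) of each measured gene of 5 lists (panels) in the 4 libraries (x axis), with lines joining the values of a gene, dashed lines at the background ceilings and open points for values not above them. The T cell panel lay above the ceiling in CD74 for 10 of 14 genes, whereas the neutrophil panel was highest in Trem2 and the macrophage panel lowest in CD74.

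Genes with a profile like the members were ranked by the root mean square difference, over the 4 libraries, from the mean profile of the 9 members above a ceiling, each gene centred on its own mean. That mean profile was 2.12 in CD74, 0.66 in Trem2, -1.10 in CD163 and -1.67 in Ccrl2. Of the members, 6 of 9 lay within 1 log2 unit of it and Gzma was farthest at 1.75. Searched were 9035 other genes above a ceiling, leaving out those with Gm, Rik or accession-style symbols. The nearest was Klrb1c (0.17), followed by Ms4a4b (0.24), Ifng (0.30), Ikzf3 (0.36), Gimap4 (0.37), Serpinb9 (0.38), Serpinb6b (0.40) and Pus3 (0.44).

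Of the 9035 genes searched, 11 lay within 0.5 and 305 within 1 log2 unit. Ms4a4b had 8.06 in CD74, 6.04 in Trem2, 4.82 in CD163 and 4.25 in Ccrl2, and Gimap4 had 10.23, 8.80, 7.19 and 7.34 in the same order. For single members the nearest genes were Ly6c2 (1.19) and Prkcq (1.44) for Gzma, Tma7 (0.07) and Ccr3 (0.08) for Gzmb, and Paip2b (0.26) and Rpl27 (0.28) for Prf1. A profile of 4 values is short, and the nearest genes of Gzmb and Prf1 included the ribosomal protein gene Rpl27.

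**Figure D4:**
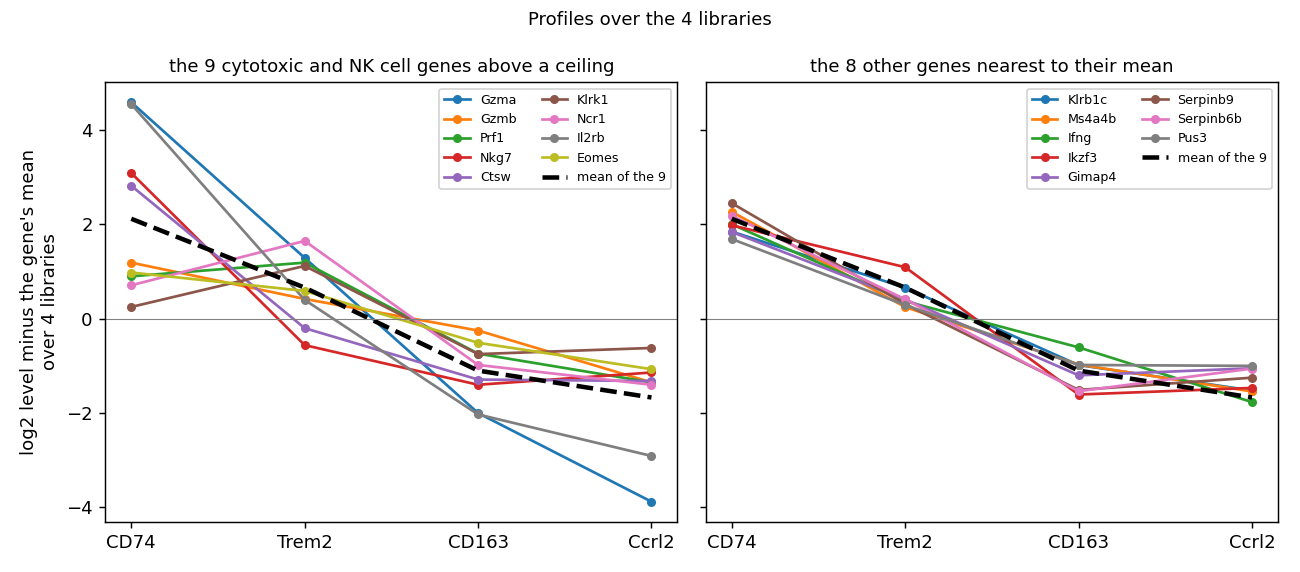
Log2 level minus the gene's mean over the 4 libraries (y axis) in each library (x axis) for the 9 members above a ceiling (left) and the 8 nearest other genes (right), with the mean of the 9 as a dashed line. The members spread from 0.25 for Klrk1 to 4.59 for Gzma in CD74.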

How the data were processed

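Total RNA of each sorted population was amplified, biotin-labelled and hybridised to a Clariom S mouse array. Per the labels' protocols, the authors background-corrected, normalized and summarised the intensities by robust multichip average (RMA). Affymetrix Expression Console is named in the submitters' processing notes. RMA settings and the annotation build: not given in the sources used here. As deposited, the values are log2 levels from 2.97 to 19.93, a scale judged from their range, with 1 column per library. The columns did not share a common distribution. Their medians over all probe sets were 5.32 in CD74, 5.21 in Trem2, 5.32 in CD163 and 5.19 in Ccrl2. A further quantile normalization moved the difference of Gzma between CD74 and Trem2 from 3.30 to 5.45. How this relates to the named normalization was not tested. Several bright genes, among them B2m, Lyz2 and Mrc1, shared the highest value of 19.93 in more than 1 library. Whether values were capped there was not tested.

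Of 28846 probe sets, 6640 were controls, and of the 22206 others 19572 had 1 gene symbol in the platform annotation, 0 several and 2634 none. The probe set with the highest mean stood for the 55 genes that had several. Calls used the 2-fold rule on 4 libraries without a model or a test, since each group held 1 library. The genes tested in a comparison were those that passed the ceiling in either of its libraries. Computation used Python 3.11.15 and pandas 2.3.3. The calling rule was tested on simulated data in which only genes with a higher mean level than most members were changed. Changes in genes near a ceiling were not covered.

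The members and lists were chosen with earlier results of these data known. All 10 members are named, with up to 4 genes of each pathway list and 3 of each marker list by largest range, the defining markers, the 8 genes nearest to the mean profile and the 2 nearest to Gzma, Gzmb and Prf1. A few further genes are named because a count of 5 or fewer held them, or were singled out after their values were seen (Gzmk, Tbx21, Cd3d and Cd3g). Alternatives were quantile normalization, median centring, other ceilings, averaged probe sets, thresholds of 1.5-fold and 4-fold and leaving out a library. A single ceiling for all libraries was added after the data were seen. Protein sequences were not used here.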

Additional observations from a re-analysis of the deposited data

How the results depend on the processing

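The 13 counts of members kept within 1.5 times their value in 104 of 120 recomputations and moved further in 16. Many of the 104 were counts of 0 that stayed 0. Averaging probe sets gave 13 of the 104, and it left each member's value unchanged because each had 1 probe set. The 104 therefore overstates how stable the counts above 0 were. The 4 members higher in CD74 than in each other library were 3 to 6 under the alternatives, with 6 after quantile normalization (Gzmb and Eomes added), 3 at 4-fold and 4 to 5 without 1 of the Ccrl2, CD163 and Trem2 libraries. Quantile normalization gave 1 member higher in Trem2 than in CD163, against 3, and 3 higher in Trem2 than in Ccrl2, against 6. A ceiling at the 99th percentile gave the same 1 and 3. Without a ceiling, 8 members were higher in CD74 than in CD163, 7 higher in Trem2 than in CD163 and 2 higher in CD163 than in Ccrl2. A ceiling at the library median gave 6 higher in Trem2 than in CD163 and 1 higher in CD163 than in Ccrl2. The 1.5-fold threshold gave 1 lower in CD74 than in Trem2 (Ncr1) and 1 higher in CD163 than in Ccrl2. The 4-fold threshold gave 3 higher in CD74 than in CD163, 1 higher in Trem2 than in CD163 and 2 higher in Trem2 than in Ccrl2. Quantile normalization narrowed that difference of Ncr1 to -0.10. Median centring gave 1 lower in CD74 than in Trem2 (Ncr1), and shifted the median difference of all genes between CD74 and Ccrl2 to -0.21. With 1 ceiling for all libraries, 2 were higher in Trem2 than in Ccrl2. With other ceilings and thresholds these moves follow from fewer or more genes passing, and for quantile normalization and median centring the cause was not tested. No called difference of a member changed sign. With 1 array per group the signal over background limits every member whose values lay near or under a ceiling. No paired analysis was possible because each group held 1 library.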
